A study of Mus musculus with 8 samples.

Results

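Transcript levels of 9 small GTPase genes, Rasd1, Rasd2, Rasl10a, Rasl10b, Rasl11a, Rasl11b, Gem, Rem2 and Rrad, were followed in mouse suprachiasmatic nucleus (SCN), the paired nucleus of the hypothalamus whose neurons set circadian time for the body. They are 9 of the 19938 genes that the array platform's annotation gives a probe set of their own. The genes were chosen by name, and for each gene the probe set that was brightest on average was to be used. Each of the 9 had exactly 1 probe set annotated to it alone and 0 shared with another symbol, so that mean decided nothing here. The day-night differences of Rasd1, Rasl11b and Gem were already known when the genes were put together, and for these 3 genes the values at the 2 times are a description without a test.

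Small GTPases are switches that act on other proteins when bound to GTP and stop when GTP is hydrolysed. Rasd1 (Dexras1), induced by the glucocorticoid dexamethasone, and its relative Rasd2 (Rhes) act on heterotrimeric G proteins of the Gi class, and Rasd1 is activated by nitric oxide through the neuronal nitric oxide synthase and an adaptor protein. Gem, Rem2 and Rrad belong to the RGK group, which binds the beta subunits of voltage-gated calcium channels and lowers the calcium current. The Rasl10 and Rasl11 proteins are Ras-like and little studied. In the SCN, Rasd1 is known from work in mice on how light and other stimuli shift the clock.

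The study set Gpr176-/- mice (KO) against wild-type mice (WT), both C57BL/6J, at CT18 and CT6, that is 18 h and 6 h after the presumed start of day, in the subjective night and the subjective day. The animals had come from a light-dark cycle and were in constant darkness, and the 4 groups were KO at CT18, KO at CT6, WT at CT18 and WT at CT6. There were 2 arrays in each group (A and B), each with pooled SCN tissue that had been cut out by laser from 10 animals. Gpr176 encodes an orphan receptor found in SCN neurons that signals through Gz, and the labels give neither the animals' ages nor the deleted part of the gene.

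The deposited values are log2 array signals, and all levels below are log2 signals after quantile normalization of the 8 arrays. Gpr176 was at 8.42 and 8.56 in KO at CT18 against 9.73 and 9.87 in WT at CT18, and at 8.08 and 8.02 in KO at CT6 against 9.37 and 9.31 in WT at CT6, so each KO array lay under each WT array of its time. All 10 SCN neuron markers checked, among them Avp, Vip, Prok2, Six6 and Gpr176 itself, lay above the level filter described next. Over both genotypes 3 of the 10 were higher and 5 lower at CT18, where 10% and 6.79% of all genes were. Their mean lay between 10.05 and 10.13 on the CT18 arrays and between 10.38 and 10.54 on the CT6 arrays. The median difference of the 10 between CT18 and CT6 over both genotypes was only -0.07 log2. Prok2 alone differed by -2.67, so these means give much weight to 1 gene. In bulk tissue, fewer cells of a type and less RNA per cell cannot be told apart. The means of 7 pan-neuronal markers lay between 10.65 and 10.74 on the CT18 arrays and between 10.64 and 10.79 on the CT6 arrays, and 0 of the 7 passed the test between the times. Of the markers of other cells, 2 of 4 ependymal genes and 1 of 6 endothelial and mural genes were lower and 1 of 7 astrocyte genes was higher at CT18 over both genotypes. The mean of the 4 ependymal genes ranged from 9.20 to 9.23 in KO at CT18, from 9.29 to 9.32 in KO at CT6, from 9.07 to 9.16 in WT at CT18 and from 9.18 to 9.28 in WT at CT6, and its part in the results below was not tested. The mean of 7 leptomeningeal genes was 7.15 and 7.14 in KO at CT18, 7.77 and 7.32 in KO at CT6, 7.85 and 7.15 in WT at CT18 and 7.24 and 7.62 in WT at CT6 (arrays A and B). Of these, 5 lay above the filter and 0 of the 5 passed in any comparison. Their median difference was -0.48 between CT18 and CT6 in KO and 0.04 in WT, -0.44 between KO and WT at CT18, and -0.64 for the KO change minus the WT change, and their part in the results was not tested. Oxt, the marker used for neighbouring magnocellular neurons, lay between 11.69 and 11.96 on the KO arrays and between 11.39 and 11.65 on the WT arrays. Its KO minus WT difference over both times was 0.32 and did not pass. The part of Oxt-expressing tissue in the results was not tested.

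Genes whose mean over the arrays lay under the 40th percentile of all probe sets, a log2 signal of 6.82, were not tested. Of the 9 genes 6 passed, and Rasl10a (mean 6.17), Rem2 (6.05) and Rrad (6.49) did not. The mean of Gem was 7.14 over all arrays and 6.82 over the CT18 arrays, so Gem passed through its CT6 level. Counts over the 6 genes that passed are therefore given as a description.

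The sequences just before the transcription start are shown for the 3 tested genes that the RefSeq promoter table (assembly GRCm38.p6) lists and whose levels differed between the times, 2 that were lower at CT18 (Rasl11b, Rasd2) and Rasl11a, the close relative of Rasl11b, which was higher. Each holds the 250 bases before the start on the plus strand, 5′ to 3′, at chr5:74195076-74195325 for Rasl11b, chr8:75213694-75213943 for Rasd2 and chr5:146844821-146845070 for Rasl11a. Capitals mark the letters of any motif searched for, on either strand.
Rasl11b: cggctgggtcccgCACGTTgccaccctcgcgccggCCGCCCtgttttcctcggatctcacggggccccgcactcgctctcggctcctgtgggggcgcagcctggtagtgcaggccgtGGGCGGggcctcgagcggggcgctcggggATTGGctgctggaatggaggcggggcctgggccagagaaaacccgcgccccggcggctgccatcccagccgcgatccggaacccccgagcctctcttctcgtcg
Rasd2: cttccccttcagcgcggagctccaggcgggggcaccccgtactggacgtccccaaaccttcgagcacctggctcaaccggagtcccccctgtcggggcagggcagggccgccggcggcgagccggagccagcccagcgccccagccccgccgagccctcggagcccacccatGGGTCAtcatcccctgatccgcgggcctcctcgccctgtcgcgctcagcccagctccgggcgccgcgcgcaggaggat
Rasl11a: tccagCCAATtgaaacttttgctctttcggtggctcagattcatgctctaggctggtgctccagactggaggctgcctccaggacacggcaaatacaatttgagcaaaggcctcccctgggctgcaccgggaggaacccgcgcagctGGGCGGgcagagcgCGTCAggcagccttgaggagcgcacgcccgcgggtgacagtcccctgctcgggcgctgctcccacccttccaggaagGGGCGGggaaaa

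The motifs searched for were the E-box CACGTG, the E'-box CACGTT, the D-box TTATGTAA, the core of REV-ERB and ROR sites GGGTCA, the cAMP response element TGACGTCA and its core TGACG, the GC box GGGCGG and the CCAAT box CCAAT. The full cAMP response element contains its core, and no other pair of these motifs overlaps by design. The Rasl11b window held 1 E'-box, a variant of the element that CLOCK and BMAL1 bind, whose first base lay 237 bases before the start, with 2 GC boxes and 1 CCAAT box. An E'-box occurs in 3.85% of the 32851 windows of the same length in the table, a GC box in 32.7% and a CCAAT box in 33.8%. The Rasd2 window held 1 REV-ERB and ROR core, 78 bases before the start, which 11.6% of windows hold. The Rasl11a window held 1 core of the cAMP response element, 89 bases before the start (17.8% of windows), 2 GC boxes and 1 CCAAT box. None of the 3 windows held the full E-box (6.02% of windows), the D-box (0.819%) or the full cAMP response element (1.55%) as spelled here. The windows of Rasl11b and Rasd2 were 74% and 75.2% G or C, that of Rasl11a 63.6%, and the median window 52.4%. Such matches are descriptions of letters and not of binding. Windows were found for 5 of the 9 genes, and Rasd1, Rasl10b, Gem and Rrad had none.

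**Figure D1:**
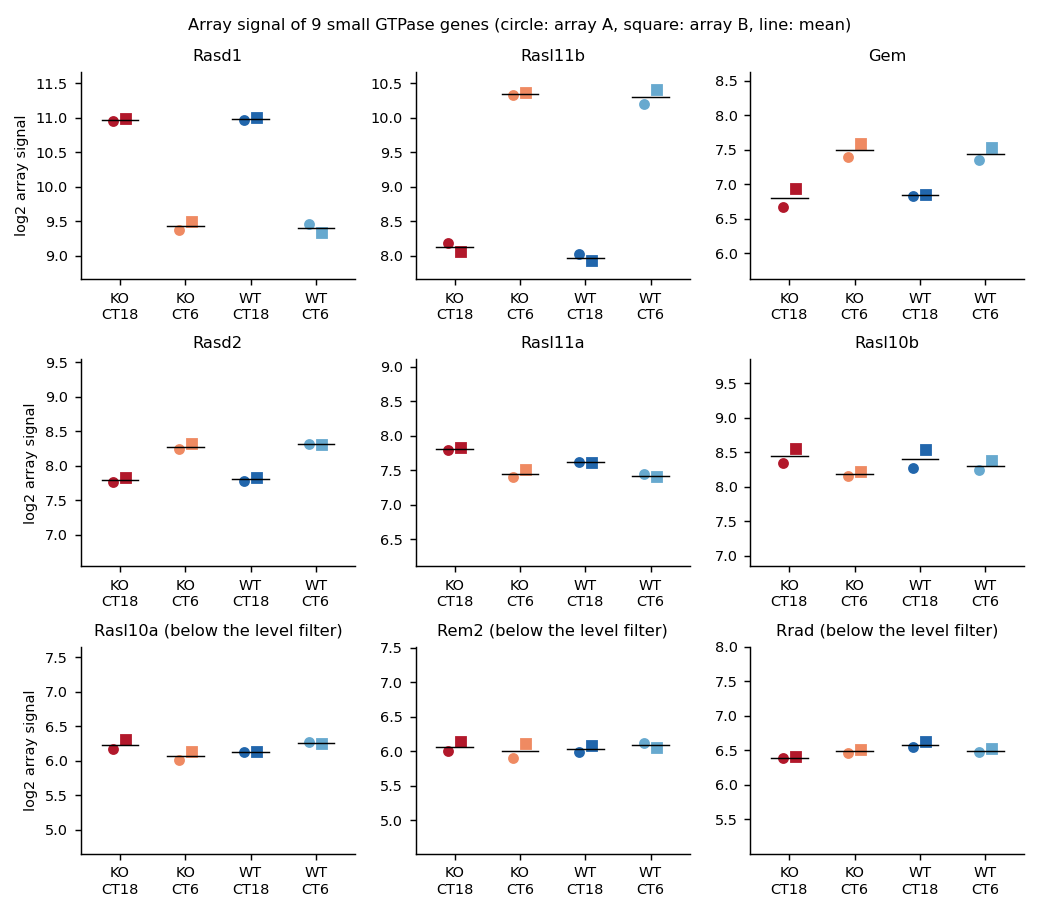
Log2 array signal of each gene (vertical axis, every panel spanning the same number of log2 units) in the 4 groups, with circles for array A, squares for array B and a line at the mean of the 2 arrays. Rasd1 lay between 10.96 and 11.00 on the 4 CT18 arrays and between 9.33 and 9.49 on the 4 CT6 arrays, Rasl11b had the opposite order, and Rasl10a, Rem2 and Rrad lay below the level filter.

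The first comparison asked how the 9 genes at night (CT18) compare with day (CT6) in each genotype. Rasd1, which acts on Gi-class G proteins, was about as much higher at CT18 in KO as in WT, while Rasl11b, Gem and Rasd2 were lower at CT18 in both genotypes and Rasl11a was moderately higher. In KO, 5 of the 6 tested genes passed the test (2 higher, 3 lower), where 7.16% of all 12452 tested genes passed, 3.63% higher and 3.53% lower. In WT 4 of 6 passed (1 higher, 3 lower), where 6.94% of all genes passed, 4.4% higher and 2.54% lower. Over both genotypes 5 of 6 passed (2 higher, 3 lower), where 16.8% of all genes passed, 10% higher and 6.79% lower. Arrays of the 2 times did not overlap for 52.5% of all genes in KO, 52.2% in WT and 21% over both genotypes. Since 3 of these genes were picked with their day-night differences known, nothing is read from these shares. The median difference of the 6 genes over both genotypes was -0.16 log2, beside 0.01 for all genes tested, and the median of its size was 0.57, beside 0.06 for all genes. For the same reason nothing is read from these medians.

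Rasd1 read 10.96 and 10.98 in KO at CT18 against 9.37 and 9.49 in KO at CT6. In WT it read 10.97 and 11.00 at CT18 against 9.46 and 9.33 at CT6. All 4 night arrays lay above all 4 day arrays, and the night values spread over less than the day values. The difference was 1.54 ± 0.0644 log2 in KO, 2.90-fold, and 1.59 ± 0.0644 in WT, 3.01-fold (± is the standard error of the fit throughout). In each genotype it was the largest rise of the 12452 genes tested, which is a description, since Rasd1 was picked for it.

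Rasd2, best known in the striatum, where it binds the kinase mTOR, had the opposite order. Its values were 7.77 and 7.82 in KO at CT18 against 8.24 and 8.31 in KO at CT6, and 7.78 and 7.82 in WT at CT18 against 8.31 and 8.30 in WT at CT6. The 4 night arrays spanned 7.77 to 7.82 and the 4 day arrays 8.24 to 8.31, without overlap. Rasd2 fell by 0.48 ± 0.0539 log2 at CT18 in KO (1.40-fold lower, limma adjusted p = 0.000712) and by 0.50 ± 0.0539 in WT (1.42-fold lower, adjusted p = 0.000511). Over both genotypes it fell by 0.49 ± 0.0381 (adjusted p = 2.86e-05) and ranked 79th among falls. The differences of Rasd1 and Rasd2 had opposite signs between the same arrays.

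Rasl11b had the largest difference of the 9 genes. It read 8.19 and 8.06 in KO at CT18 against 10.33 and 10.36 in KO at CT6. In WT it read 8.02 and 7.93 at CT18 against 10.20 and 10.40 at CT6. The day arrays of both genotypes lay more than 2 log2 units above their night arrays on average, and no night array came near a day array. The difference was -2.22 ± 0.0762 log2 in KO, 4.65-fold lower at CT18, and -2.33 ± 0.0762 in WT, 5.02-fold lower. Rasl11b was the 3rd largest fall in KO and the 2nd largest in WT, again as a description.

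Rasl11a, whose mouse protein was described as a regulator of ribosomal RNA transcription, differed less and in the other direction. Its levels were 7.79 and 7.82 in KO at CT18 against 7.40 and 7.50 in KO at CT6. In WT they were 7.62 and 7.61 at CT18 against 7.44 and 7.40 at CT6. Night arrays lay above day arrays in both genotypes. Rasl11a rose by 0.36 ± 0.0552 log2 at CT18 in KO (1.28-fold, limma adjusted p = 0.00444) and over both genotypes by 0.28 ± 0.0391 (1.21-fold, adjusted p = 0.00134). The WT difference of 0.19 ± 0.0552 did not pass (adjusted p = 0.0735). The test of the difference between the genotypes' changes did not pass either (0.17 ± 0.0781, 95% interval -0.01 to 0.34, adjusted p = 0.944), so the KO change is not shown to exceed the WT change.

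Rasl10b, a Ras-like protein with few described roles, was at 8.35 and 8.54 in KO at CT18 against 8.15 and 8.22 in KO at CT6. In WT it was at 8.27 and 8.54 at CT18 against 8.24 and 8.37 at CT6. Array B read higher than array A in all 4 groups, by up to 0.271, and the night and day arrays overlapped in WT. The difference of 0.26 ± 0.0959 in KO (limma adjusted p = 0.151), 0.10 ± 0.0959 in WT (adjusted p = 0.617) and 0.18 ± 0.0678 over both genotypes (adjusted p = 0.110) did not pass. With the arrays' letter as a block the last was 0.18 ± 0.0456 and passed (limma adjusted p = 0.0316). The labels do not say whether the letters pair the samples. Without array A of WT at CT18 the difference over both genotypes passed, at 0.24 (adjusted p = 0.0338). Without array B of WT at CT18 it was 0.11 (adjusted p = 0.295), and the WT difference alone was -0.04.

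Gem, an RGK member, read 6.67 and 6.93 in KO at CT18 against 7.40 and 7.59 in KO at CT6. In WT it read 6.83 and 6.85 at CT18 against 7.35 and 7.52 at CT6. The 4 day arrays lay above the 4 night arrays, and array B was again the higher one in each group. The difference was -0.69 ± 0.0967 log2 in KO, 1.61-fold lower at CT18, and -0.60 ± 0.0967 in WT, 1.51-fold lower. Without array B of WT at CT6 the WT difference was -0.51. The mean of Gem at CT18 lay at the level filter, and 1 of its 4 night arrays lay below it.

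The other RGK genes and Rasl10a stayed near the lower end of the signals. Rem2, which in neurons acts on synapse and dendrite growth, read 6.01 and 6.13 in KO at CT18 against 5.91 and 6.10 in KO at CT6, and 6.00 and 6.08 in WT at CT18 against 6.12 and 6.05 in WT at CT6. The groups of Rem2 overlapped in each genotype. Rrad, first found through raised levels in muscle of people with diabetes, read 6.39 and 6.40 in KO at CT18 against 6.47 and 6.50 in KO at CT6, and 6.55 and 6.61 in WT at CT18 against 6.47 and 6.51 in WT at CT6. Rasl10a read 6.17 and 6.30 in KO at CT18 against 6.01 and 6.13 in KO at CT6, and 6.13 and 6.12 in WT at CT18 against 6.28 and 6.24 in WT at CT6. In a fit without the level filter, the differences over both genotypes were 0.01 ± 0.0549 for Rem2 (adjusted p = 0.961), 0.00 ± 0.0368 for Rrad (adjusted p = 0.998) and 0.02 ± 0.0460 for Rasl10a (adjusted p = 0.907). For Rasl10a and Rrad this average set opposite differences against each other. Rasl10a differed by 0.17 in KO (limma adjusted p = 0.252) and -0.13 in WT (adjusted p = 0.392), Rrad by -0.09 (adjusted p = 0.472) and 0.09 (adjusted p = 0.482). Their arrays of the 2 times did not overlap in either genotype, as for 52.5% of all tested genes in KO and 52.2% in WT. No difference of these 3 genes between the times passed at these signal levels.

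**Figure D2:**
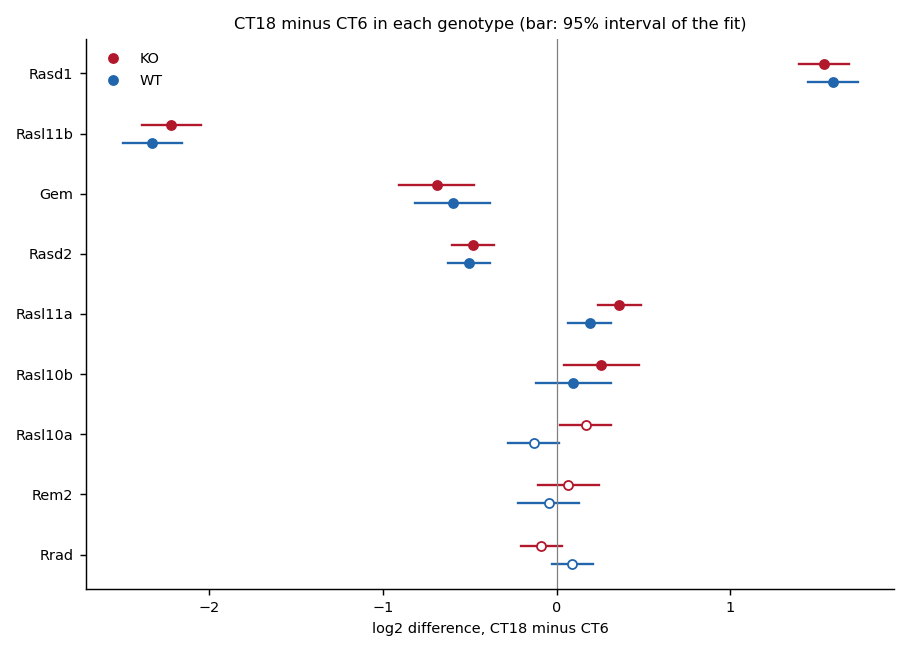
Difference between CT18 and CT6 in log2 units (horizontal axis) for each gene in KO (upper point of each pair) and WT (lower point), with 95% intervals of the fit as bars and open points for the 3 genes below the level filter. Rasd1 lies at 1.54 in KO and 1.59 in WT, Rasl11b at -2.22 and -2.33 in the same order, and the intervals of the 2 genotypes overlap for each tested gene.

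The share of each gene's variation over the 8 arrays that went with the time of day differed among the 6 tested genes. It was 99.6% for Rasd1, 99.4% for Rasl11b, 98.8% for Rasd2, 92.1% for Gem, 77.7% for Rasl11a and 43.4% for Rasl10b, where the median gene tested had 22.7%. Rasd1, Rasl11b and Gem were picked with their day-night differences known, so their shares are only a description. Genotype took 11.8% of the variation of Rasl11a and 2.14% of that of Rasl10b, and at most 0.184% for the other tested genes, beside a median of 9.57%. The spread between the 2 arrays of a group took 45.5% for Rasl10b and 7.39% for Gem, against a median of 39.5% for all genes tested. The shares of a gene add up to a whole, so a large share for time leaves little for the rest, whatever its size in log2. Rasl11b differed by 0.098 between KO and WT over both times (limma adjusted p = 0.485), where the median size over all genes was 0.046. The standard error of Gem between the times over both genotypes was 0.0684, beside a median of 0.0449.

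**Figure D3:**
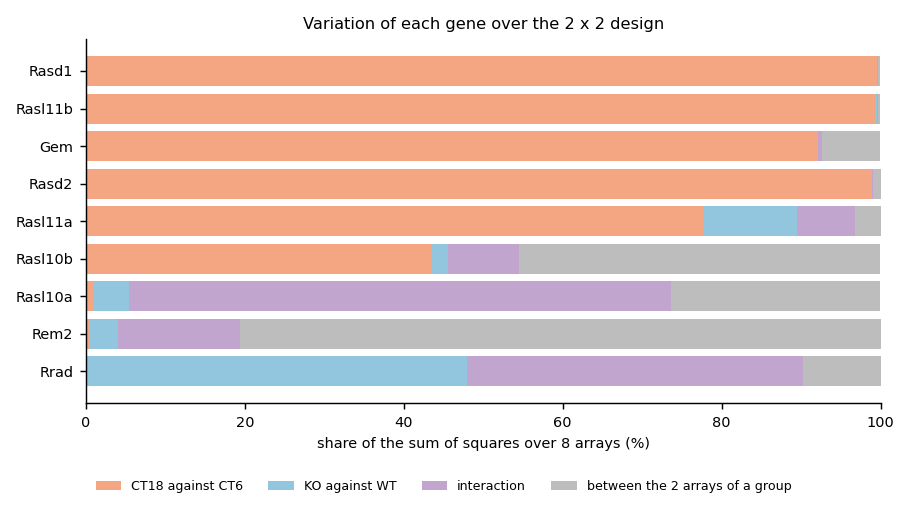
Share of the sum of squares over the 8 arrays, in percent (horizontal axis), that goes with time, genotype, their interaction and the 2 arrays of a group, for each gene. Time takes 99.6% for Rasd1 and 0.000355% for Rrad, and the low-signal genes Rasl10a, Rem2 and Rrad divide among the other parts.

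The second comparison asked whether these genes differ between KO and WT. None of the 6 tested genes passed at CT18, at CT6, over both times or in the interaction by limma (0 of 6 each), where 0.00803%, 0.00803%, 0.0241% and 0% of all genes passed. At an unadjusted p under 0.05, 1 of the 6 genes, Rasl11a, came out at CT18 and over both times, and 0 at CT6 and in the interaction, beside 12.5%, 12%, 4.24% and 4.86% of all genes. The KO minus WT differences of the 6 genes lay between -0.04 and 0.19 log2 at CT18 and between -0.12 and 0.05 at CT6, and their median size was 0.04 at each time, beside 0.07 and 0.05 for all genes.

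Among the 6 tested genes, Rasl11a had the largest of these differences. At CT18 it read 7.79 and 7.82 in KO against 7.62 and 7.61 in WT, without overlap, a difference of 0.19 ± 0.0552 (95% interval 0.07 to 0.32, limma adjusted p = 0.319). At CT6 it read 7.40 and 7.50 in KO against 7.44 and 7.40 in WT, a difference of 0.02 ± 0.0552 (adjusted p = 0.980). Rasl11b at CT18 (0.15 ± 0.0762, adjusted p = 0.434) also had both KO arrays above both WT arrays. Rasl10b at CT6 (-0.12 ± 0.0959, adjusted p = 0.975) had both KO arrays below both WT arrays. Arrays of the 2 genotypes did not overlap for 45.8% of all genes at CT18 and for 32.8% at CT6, so 2 of 6 and 1 of 6 are not above the background. Rrad and Rasl10a, below the level filter, had differences of like size in the fit without it. Rrad was at -0.19 ± 0.0521 at CT18 (limma adjusted p = 0.455) and -0.01 at CT6. Rasl10a was at -0.19 ± 0.0651 at CT6 (limma adjusted p = 0.997) and 0.11 at CT18. None of these passed.

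The intervals bound the genotype differences. For Rasd1 the KO minus WT difference was -0.02 at CT18 (95% interval -0.16 to 0.13, limma adjusted p = 0.931) and 0.03 at CT6 (-0.11 to 0.18, adjusted p = 0.979). For Rasd2 it was -0.01 at CT18 (-0.13 to 0.11, adjusted p = 0.953) and -0.03 at CT6 (-0.15 to 0.09, adjusted p = 0.978). Gem, with wider spread, gave -0.04 at CT18 (-0.26 to 0.18, adjusted p = 0.874) and 0.05 at CT6 (-0.16 to 0.27, adjusted p = 0.979). A genotype difference of the size of the day-night differences of Rasd1, Rasd2 or Gem lies outside these intervals, while smaller ones remain possible.

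The test of whether the day-night change itself differed between KO and WT did not pass for any of the 6 genes (limma adjusted p from 0.944 to 0.986). The change in KO minus that in WT was -0.05 for Rasd1 (95% interval -0.25 to 0.15), 0.11 for Rasl11b (-0.13 to 0.35), 0.02 for Rasd2 (-0.15 to 0.19) and -0.09 for Gem (-0.40 to 0.21). These intervals are wide beside the 0.07 log2 that is the median size of this difference over all genes.

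**Figure D4:**
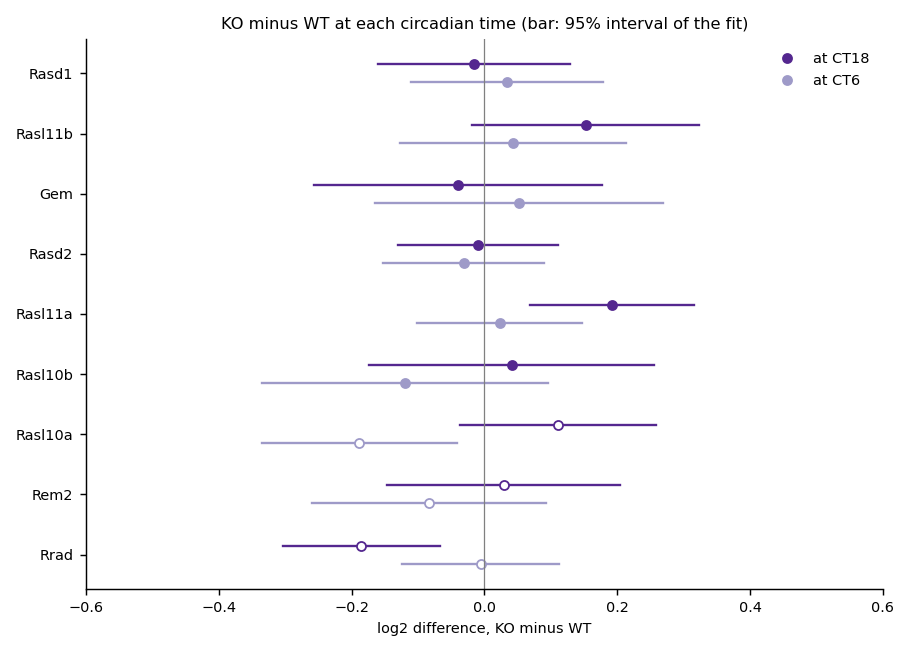
Difference between KO and WT in log2 units (horizontal axis) for each gene at CT18 (upper point of each pair) and CT6 (lower point), with 95% intervals of the fit as bars and open points for the 3 genes below the level filter. Among the tested genes the interval leaves out 0 for Rasl11a at CT18 (0.07 to 0.32), before adjustment over all genes.

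The genes whose pattern over the 8 arrays was closest were found for Rasd1, Rasl11b and Gem, the tested members that differed by at least 0.5 log2 between the times. Closeness was the root mean square difference between log2 values centred on each gene's own mean. For Rasd1 the closest were Tuba8, a tubulin gene (0.106), Avpr1a, which encodes a vasopressin receptor (0.148), Sertm1 (0.191), Tarsl2, a threonyl-tRNA synthetase (0.304), and Dnajb1, a heat shock cochaperone (0.305). For Rasl11b they were the phosphatase gene Dusp4 (0.154), the clock repressor genes Ciart (0.176) and Per1 (0.296), the SCN output peptide gene Prok2 (0.231) and the clock-controlled transcription factor gene Dbp (0.378). For Gem they were Slc2a13, an inositol transporter (0.0465), Pcsk1, a prohormone convertase (0.0712), Prkaa2, a catalytic subunit of AMP-activated kinase (0.0813), Spred3 (0.0868), and Kcnc2, a potassium channel subunit (0.0879). The lists do not share a gene, and a measure of distance favours genes with a difference of like size between the times.

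**Figure D5:**
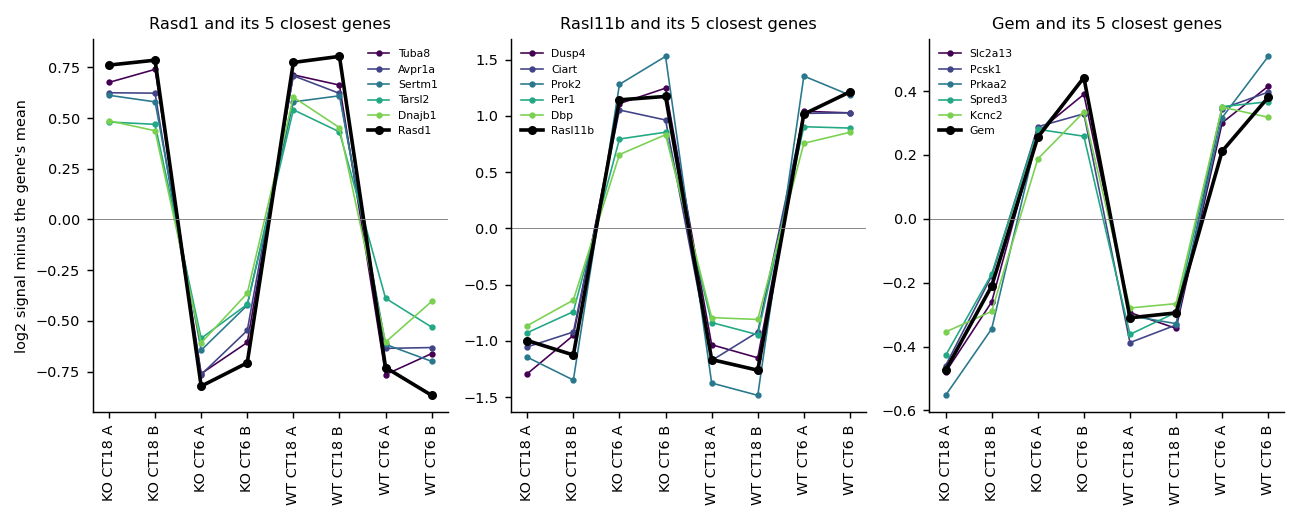
Log2 signal minus the gene's own mean (vertical axis) on the 8 arrays for Rasd1, Rasl11b and Gem (black) and the 5 genes closest to each (colours, nearest first in the legend). The nearest genes are Tuba8 for Rasd1 (root mean square difference 0.106), Dusp4 for Rasl11b (0.154) and Slc2a13 for Gem (0.0465).

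Neighbours on the chromosome were looked up from the order of RefSeq genes, as a check added after the values of the members had been seen. For Rasl11b, the nearest tested genes on either side, Dancr (-0.09 ± 0.0392, limma adjusted p = 0.164) and Scfd2 (-0.11 ± 0.0460, adjusted p = 0.139), did not pass between CT18 and CT6 over both genotypes. Beside Rasd1, Med9, a subunit of the Mediator complex, rose by 0.23 ± 0.0412 (adjusted p = 0.00445), and Pemt was at 0.13 ± 0.0463 (adjusted p = 0.0904). The neighbours of Gem, Virma (0.03 ± 0.0477, adjusted p = 0.701) and Pdp1 (0.01 ± 0.0382, adjusted p = 0.912), did not pass, nor did those of Rasd2, Hmox1 (-0.08 ± 0.0561, adjusted p = 0.381) and Nr3c2 (-0.02 ± 0.0480, adjusted p = 0.790).

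Partners and relatives of the 9 genes were read from lists. Of 19 tested relatives in the Ras subfamily, 2 rose and 1 fell at CT18 over both genotypes, or 15.8%, close to the 16.8% of all genes. Diras2 (0.39 ± 0.0434, limma adjusted p = 0.000332) and Rit1 (0.21 ± 0.0564, adjusted p = 0.0323) rose and Ralb fell by 0.16 ± 0.0468 (adjusted p = 0.0408). The median of these 19 differences was 0.04. Within single genotypes, 1 rose and 0 fell in KO, and 1 rose and 1 fell in WT, where 7.16% of all genes passed in KO and 6.94% in WT. The fall in WT was that of Ralb, at -0.29 (limma adjusted p = 0.0301), beside -0.04 in KO (adjusted p = 0.801).

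Of 21 tested partners of the RGK proteins, among them calcium channel subunits, calmodulins and 14-3-3 proteins, 3 rose and 0 fell at CT18 over both genotypes (14.3%, beside 16.8% of all genes, median 0.07). Cacna1c, the pore of an L-type calcium channel (0.44 ± 0.0430, limma adjusted p = 0.000136), Cacna2d1, an auxiliary channel subunit (0.28 ± 0.0634, adjusted p = 0.0163), and the 14-3-3 gene Ywhah (0.26 ± 0.0521, adjusted p = 0.00825) rose. The beta subunit genes Cacnb1 (0.09 ± 0.0431, adjusted p = 0.217) and Cacnb4 (-0.04 ± 0.0388, adjusted p = 0.571), whose products the RGK proteins bind, did not pass. The other beta subunit genes, Cacnb2 and Cacnb3, were not among the genes tested. By genotype the counts were 2 higher and 0 lower in KO, and 1 and 1 in WT (9.52% in each, beside 7.16% of all genes in KO and 6.94% in WT).

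Of 20 tested partners of Rasd1 and Rasd2, 2 rose and 2 fell over both genotypes (20%, beside 16.8% of all genes, median 0.06). Nos1, the neuronal nitric oxide synthase whose product activates Rasd1, fell by 0.28 ± 0.050 (limma adjusted p = 0.00476), and Htt, the gene of huntingtin, a Rasd2 partner, fell by 0.15 ± 0.0362 (adjusted p = 0.0185). The adenylyl cyclase genes Adcy1 (0.38 ± 0.0630, adjusted p = 0.00303) and Adcy5 (0.19 ± 0.0372, adjusted p = 0.00796) rose. Nos1ap, the adaptor between the synthase and Rasd1, was at 0.08 ± 0.0378 (adjusted p = 0.199) and the Gi-class genes Gnai1 (0.08 ± 0.0380, adjusted p = 0.178) and Gnao1 (0.08 ± 0.0409, adjusted p = 0.202) did not pass. In KO alone 0 rose and 1 fell, and in WT 1 rose and 0 fell (5% in each, beside 7.16% of all genes in KO and 6.94% in WT).

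Of 27 tested exchange factors and GTPase activators of Ras proteins, 2 rose and 3 fell over both genotypes (18.5%, beside 16.8% of all genes, median -0.01). Rasa4 (0.35 ± 0.0495, limma adjusted p = 0.00143), which switches Ras off, and Rasgrp1 (0.23 ± 0.0474, adjusted p = 0.00967), an exchange factor, rose. Spred2, an inhibitor of Ras signalling, fell by 0.29 ± 0.0647 (adjusted p = 0.0138), and Nf1, a Ras GTPase activator, by 0.23 ± 0.0376 (adjusted p = 0.00312). KO and WT alone each had 1 higher and 1 lower (7.41%, beside 7.16% of all genes in KO and 6.94% in WT). Between KO and WT over both times, 0 members of any of the 4 lists passed by limma, where 0.0241% of all genes did.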

How the data were processed

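RNA was measured with whole-transcript arrays on 8 SCN pools, 2 per group. The authors deposited 1 table of log2 signals for 28853 probe sets. Background correction, summarisation and normalization are not given in the sources used here. Because the lower quartiles of the arrays spread by 0.139, over a limit of 0.1, the columns were quantile normalized (limma 3.58.1, R 4.3.3). A gene was represented by its brightest probe set with 1 symbol in the platform annotation, and genes under the 40th percentile of probe set means were left out, which left 12452 of 19938. A mean per group was fitted to all 8 arrays with moderated variances (4 residual and 5.58 prior degrees of freedom), adjusted with Benjamini-Hochberg over the 12452 genes, and called at 0.05. The fit was tested on simulated data. The number of arrays limits the precision.

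The genes, lists and settings were chosen with earlier results of these data known. Named genes are the 9 members, Gpr176, the 5 closest patterns per member with a difference of at least 0.5 log2, and called list members (at most 4 per list by smallest p), with some partners and chromosomal neighbours added after their values were seen. Alternatives covered normalization, filter, probe choice, variance model, array weights, samples in the fit, the replicate letter as a block, and leaving out each array.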

Additional observations from a re-analysis of the deposited data

Results flagged for a closer look

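Rasl10a and Rrad drew attention because both CT18 arrays lay on one side of both CT6 arrays in KO and on the other side in WT. For Rasl10a the CT18 minus CT6 difference was 0.17 in KO and -0.13 in WT, and the change in KO minus that in WT was 0.30 ± 0.0920 log2. For Rrad the difference was -0.09 in KO and 0.09 in WT, and the change in KO minus that in WT was -0.18 ± 0.0737. In the fit without a level filter neither passed (unadjusted p = 0.0101 for Rasl10a and 0.0377 for Rrad, limma adjusted p = 0.968 for both), and 0 of 19938 genes passed this interaction test. Such an opposite order occurred in 3.93% of the 19938 genes. Both genes lay below the level filter. In a check added after the values were seen, the opposite order was also present for Rasl10a in values as deposited and centred on each array's median, and for Rrad in neither of them.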

How the results depend on the processing

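The counts of members that passed stayed within 1.5 times the values given under every alternative run. Leaving out 1 array gave 5 of the tested genes in KO between CT18 and CT6, 3 to 4 in WT and 5 to 6 over both genotypes, and 0 in the KO minus WT and interaction tests. With the filter at the median, Gem was not tested and the counts were 4 in KO, 3 in WT and 4 over both. Of 689 recomputed member values 680 kept their direction, where one was called, and side of the threshold, 2 now passed, 1 no longer did and 6 uncalled values moved by more than their standard error with a change of sign, while 31 uncalled values in all changed sign. The cause was not tested. The labels do not say whether the arrays' letters pair the samples. Correlations of A minus B deviations over genes between groups ran from -0.222 to 0.257, which cannot settle it. With the replicate block Rasl10b passed over both genotypes (0.18, adjusted p = 0.0316) and 6 members did, and all genes called numbered 780 in KO and 765 in WT. With the letters of WT at CT18 crossed, chosen after seeing the data, the member counts were 5 in KO, 4 in WT and 5 over both, and all genes called numbered 1279, 1180 and 2591. Over all genes, leaving out 1 array gave 382 to 795 calls in KO (891 in the fit given), 311 to 827 in WT (864) and 1385 to 1803 over both (2096), median centring gave 590 in KO, and a trended, robust prior gave 1138, 1122 and 2434. KO minus WT over both times had 1 to 9 calls (3), and 1 to 3 at CT18 (1) and 1 to 2 at CT6 (1). With 2 arrays a group, the median standard error was 0.0636 for a contrast of 2 groups and 0.0899 for the interaction, and signals near the filter limit what Gem, Rasl10a, Rem2 and Rrad can show.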
